A study of Mus musculus with 17 samples.

Results

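miR-204 and miR-211 were followed in mouse kidney for 30 days after ischemia reperfusion injury (IRI). Both members (mmu-miR-204 and mmu-miR-211 on the array) were taken by name, with earlier results of these data known. They account for 2 of the 569 mature miRs that the array carried. In short, the miR-204 probe stayed close to background in naïve kidney, after sham surgery and through day 5 of IRI. It gave clear signal after IRI on days 7, 14, 21 and 30. It also passed the background limit given below in IRI on day 1 and in sham on day 14. The miR-211 probe stayed close to background in almost every sample. Neither miR passed the test across all miRs in any comparison, as given below.

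Every sample was kidney RNA of C57/BL6 mice aged 10 to 12 weeks, pooled from 3 animals. The IRI groups had 30 minutes of warm ischemia, the sham groups had surgery without ischemia, and the naïve group was untreated. IRI and sham kidneys were taken on days 1, 3, 5 and 7, and then on days 10, 14, 21 and 30, with 1 pool for each arm and day, and there was 1 naïve pool, giving 17 samples. The sample labels give female mice and the study's methods male mice. The IRI pool (dye Cy3) and the sham pool (dye Cy5) of a day shared an array, and the naïve pool was hybridised alone in Cy3. The dyes were never swapped, so an IRI effect of constant size and a dye effect cannot be told apart. Days serve as the replicates of an arm, since no single day has a replicate. The RNA came from whole kidney, in which fewer cells of a type and less miR per cell cannot be told apart.

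A miR is a short RNA that guides Argonaute proteins to matching sites in mRNAs, mainly through its seed, bases 2 to 8, and thereby lowers the output of those mRNAs. miR-204 and miR-211 form a family with a common seed. miR-204 lies in an intron of Trpm3, a cation channel gene, and is known from pigmented epithelium of the retina, from choroid plexus and from kidney tubule epithelium. miR-211 lies in an intron of the related gene Trpm1 and is best known from melanocytes.

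The mature sequences are shown because the results turn on how alike the miRs are. They are the 5′ arms listed by RefSeq, with the seed and the base that differs in capitals.

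miR-204: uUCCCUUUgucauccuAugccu

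miR-211: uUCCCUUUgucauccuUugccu

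The mature miRs differ at 1 of 22 positions, A17U, with miR-204 first and positions counted from the 5′ end. This position lies outside the seed. On the build GRCm38.p6, mature miR-204 is at chr19:22750610-22750631 and mature miR-211 at chr7:64205831-64205852, both on the plus strand, within Trpm3 and Trpm1. The precursor hairpins are shown with the mature miR in capitals, since the members come from separate genes.

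miR-204 hairpin: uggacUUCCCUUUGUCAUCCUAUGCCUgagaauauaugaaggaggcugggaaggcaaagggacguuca

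miR-211 hairpin: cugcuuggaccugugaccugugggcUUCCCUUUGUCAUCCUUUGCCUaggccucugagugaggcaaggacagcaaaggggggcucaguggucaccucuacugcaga

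The hairpins of 68 and 106 bases are at chr19:22750605-22750672 and chr7:64205806-64205911 of the same build. The opposite arms of both hairpins had no probe on the array. Of 1679 mature mouse miRs in the RefSeq table, 3 hold the seed UCCCUUU, namely both members and miR-7670-3p, and only the members had a probe. The other probe closest to them in sequence was that of miR-23a, which differs at 10 positions, so that on this array the members were each other's nearest neighbours. In all, 34 pairs of probes on the array differ by 1 substitution.

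Each miR was printed as 6 spots, and 250 empty spots served as the background of each sample. The median of the empty spots was 185.5 to 515.9 in the Cy3 channels of IRI, 33.0 to 43.9 in the Cy5 channels of sham, and 510.9 in naïve. A probe was called above background when its mean over 6 spots exceeded that median by 3 scaled median absolute deviations (MADs) of the empty spots. By this rule 124 to 372 miRs were above background in an IRI sample and 347 in naïve, and 104 were so in all 17 samples. The day 10 and day 14 IRI channels had uneven empty spots, with MADs of 82.0 and 53.6 against 11.3 to 25.0 in IRI on the other days. The median coefficient of variation of the spots was 16.7% in IRI on day 14 and 12.4% on day 30. On the other days of IRI it was 4.18% to 7.45%. The IRI and sham pools of day 10 are left out of the study's own analysis and are used here. Scanner intensities are raw values of a channel and are compared within a sample, or between samples of the same dye.

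miR-204 was above background in 5 of 8 IRI samples, in 1 of 8 sham samples and not in naïve. Of all 569 miRs, 28.6% were above background in at least 5 of 8 IRI samples, 53.3% in at least 1 of 8 sham samples and 61.0% in naïve. Its mean intensity over the empty spots in IRI was 41.4 (day 1), 50.8 (day 3), 25.7 (day 5), 83.2 (day 7), 222.9 (day 10), 262.9 (day 14), 182.2 (day 21) and 130.5 (day 30). In MADs of the empty spots these signals were 3.61, 2.06, 1.34, 7.37, 2.72, 4.90, 12.4 and 5.22 in the same order. Days 1, 7, 14, 21 and 30 thus passed the limit, and day 10, with the most variable empty spots, did not. In sham the signal was 0.369 to 3.08 MADs, and only day 14 passed the limit, by a narrow margin. In naïve it was 2.58 MADs. The plot of signal over background shows which samples lay above the limit.

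**Figure D1:**
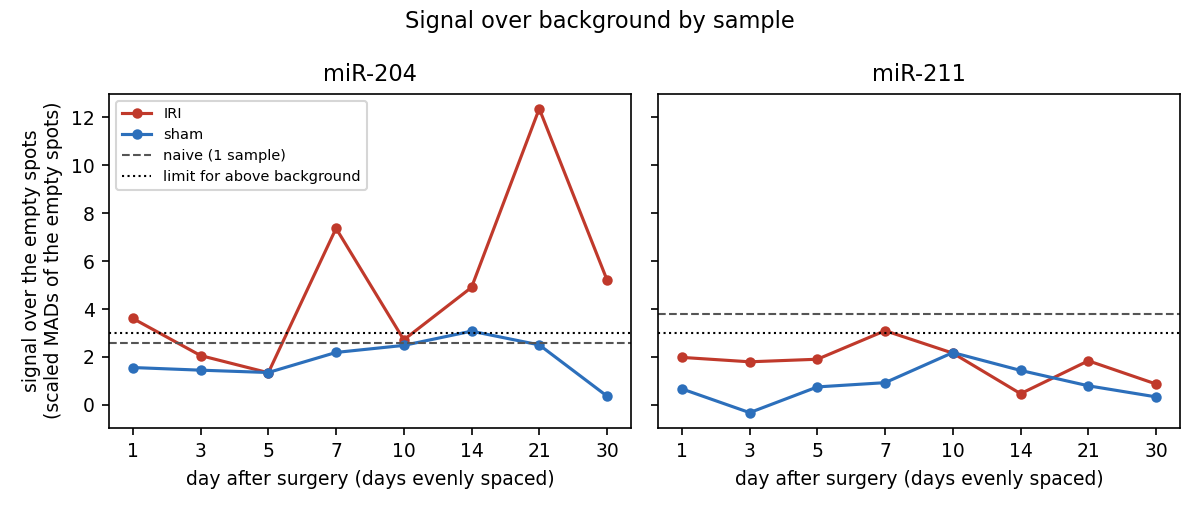
Signal of the miR-204 probe (left) and the miR-211 probe (right) over the median of the empty spots, in scaled MADs of those spots (y axis), by day after surgery (x axis, days evenly spaced). Points are single samples of IRI (red, Cy3) and sham (blue, Cy5), the dashed line is the naïve sample and the dotted line is the limit of 3 MADs. miR-204 in IRI reached 7.37 on day 7 and 12.4 on day 21, whereas sham stayed between 0.369 and 3.08.

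The signal was also set against the spots around each spot. Here the median of the neighbouring spots, within 5 rows and 3 columns in the same channel, was subtracted, a measure added after the data were seen. The miR-204 signal in IRI, with its SD over 6 spots of 1 sample, was then 6.56 ± 6.96 (day 1), −4.77 ± 13.5 (day 3), −10.1 ± 8.16 (day 5), 44.2 ± 16.9 (day 7) and 8.35 ± 25.8 (day 10). The last 3 days gave 221.9 ± 60.5 (day 14), 152.1 ± 10.2 (day 21) and 97.2 ± 24.5 (day 30). Days 7, 14, 21 and 30 stood above 0 by more than the spot SD, and days 1, 3, 5 and 10 did not. The order from the highest was day 14, day 21, day 30 and day 7, and days 14 and 21 overlapped by their SDs, as did days 7 and 10. The naïve sample gave −3.54 ± 10.3. The sham samples gave −1.52 to 3.21 on their own, lower, Cy5 scale, and 3 of the 8 also stood above 0 by more than the spot SD, with 2.47 ± 1.24 (day 3), 3.21 ± 0.868 (day 14) and 2.89 ± 1.31 (day 21). The spot SD covers the array and not the spread between mice.

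miR-211 was above background in 1 of 8 IRI samples, 0 of 8 sham samples and in naïve, while 71.0% of all miRs were so in at least 1 IRI sample. In IRI its signal in MADs was 1.98 (day 1), 1.80 (day 3), 1.91 (day 5), 3.10 (day 7), 2.16 (day 10), 0.469 (day 14), 1.84 (day 21) and 0.872 (day 30). It thus crossed the limit of 3 narrowly on day 7. In intensity over the empty spots it was 22.8 (day 1), 25.1 (day 14), 27.1 (day 21) and 21.8 (day 30). The lower values in MADs on days 14 and 30 thus reflect empty spots with MADs of 53.6 and 25.0, against 11.5 on day 1. In sham the miR-211 signal was −0.322 to 2.18 MADs, and in naïve it was 3.80 MADs. Against the neighbouring spots it was below 0 in all 8 IRI and all 8 sham samples, and 9.17 ± 18.3 (SD over 6 spots) in naïve, which is smaller than the spot SD. In MADs its IRI and sham ranges overlapped. Against the neighbouring spots they did not, at −37.9 to −4.08 in IRI and −3.87 to −0.167 in sham, which are intensities of different dyes and not comparable in size.

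The table of processed values that the authors deposited has a linear scale, and none of the sources used here gives how it was made. In it miR-204 had 20, 12, 12, 42, 20, 75, 84 and 52 in IRI from day 1 to day 30, and 12, 20, 14, 23, 21, 22, 24 and 18 in sham on the same days. The naïve value was 13. IRI on days 7, 14, 21 and 30 lay above every sham sample, and IRI on days 1, 3, 5 and 10 lay within the range of sham. miR-211 had 17, 12, 9, 16, 11, 17, 18 and 23 in IRI, 8, 9, 12, 15, 18, 20, 15 and 18 in sham, and 17 in naïve, so that its groups overlapped. All these values are below 200, the level that the study took as the limit of reliable detection, which 114 of the 569 miRs reached in at least 1 sample of this table and 0 of 2 members did.

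**Figure D2:**
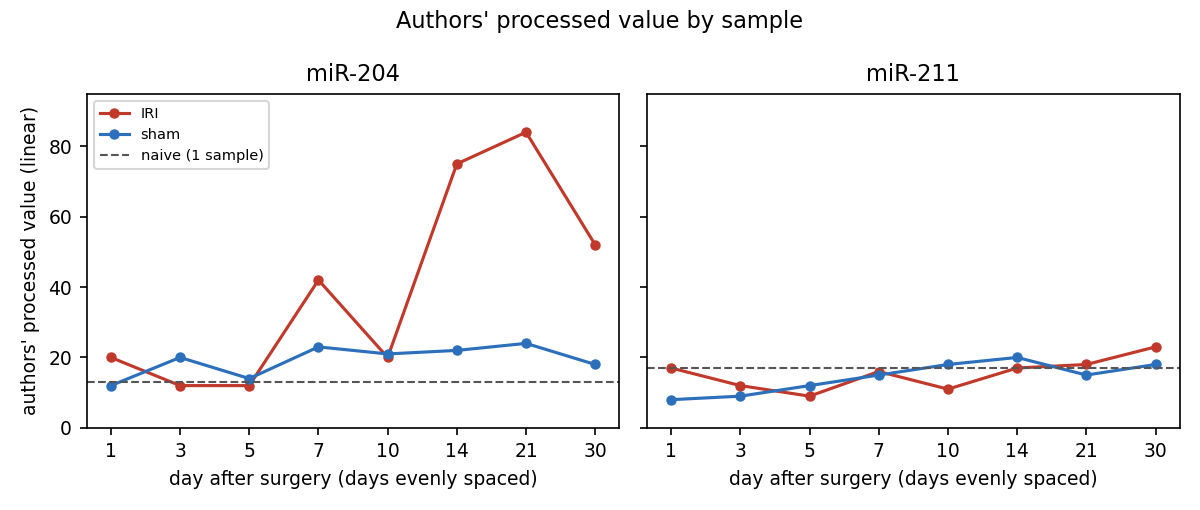
Deposited processed value of miR-204 (left) and miR-211 (right) on a linear scale (y axis) by day after surgery (x axis, days evenly spaced). Points are single samples of IRI (red) and sham (blue) and the dashed line is the naïve sample. miR-204 in IRI stood at 75, 84 and 52 on days 14, 21 and 30, above the highest sham value of 24, and no such gap is seen for miR-211.

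For tests, the scanner intensities were background-corrected with an offset of 50 and normalized, so that a probe with no signal keeps a level above 0. Fold changes on this scale understate those of dim probes. The normalized level of miR-204 in IRI was 100.4 (day 1), 95.6 (day 3), 86.1 (day 5), 126 (day 7), 105 (day 10), 184 (day 14), 170.1 (day 21) and 141 (day 30). In sham it was 92.6, 103, 91.0, 108, 102, 92.4, 104 and 106 on the same days, and 88.7 in naïve. By signal in MADs the sham order differed, with day 14 highest at 3.08 and day 30 lowest at 0.369. The IRI levels of days 7, 14, 21 and 30 were above all sham levels, and those of the other 4 days were not. Over the days the SD of the log2 level was 0.40 in IRI and 0.10 in sham (n = 8 each). The normalized level of miR-211 was 88.1 to 95.9 in IRI and 88.2 to 94.9 in sham, and in naïve its log2 level, 6.64, was above its highest log2 level in these 16 samples, 6.58. Its SD of the log2 level was 0.04 in both arms.

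**Figure D3:**
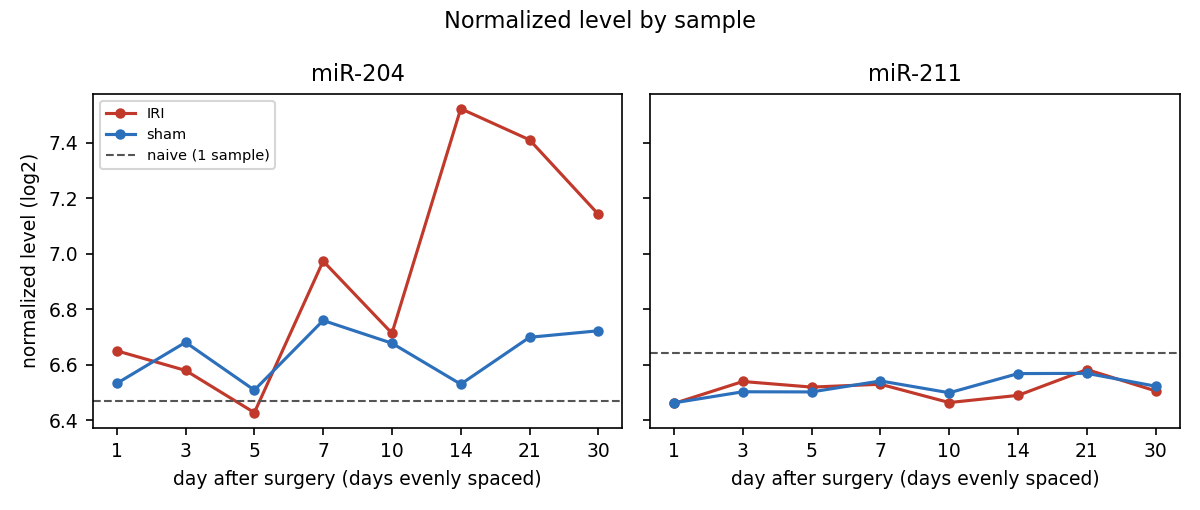
Normalized log2 level of miR-204 (left) and miR-211 (right) (y axis) by day after surgery (x axis, days evenly spaced) in single samples of IRI (red) and sham (blue), with the naïve sample as a dashed line. The miR-204 level in IRI was 6.65 (day 1), 7.52 (day 14) and 7.14 (day 30), and the miR-211 levels lie in a narrow band in both arms.

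The first comparison asked whether IRI and sham kidneys differed over the whole course. The log2 IRI/sham ratio of miR-204 was 0.12 (day 1), −0.10 (day 3), −0.08 (day 5), 0.21 (day 7), 0.04 (day 10), 0.99 (day 14), 0.71 (day 21) and 0.42 (day 30). It was positive on 6 of 8 days and largest on the last 3. The mean was 0.29 ± 0.13 (SE, n = 8), with a 95% interval of −0.01 to 0.59 and an adjusted p of 0.146 by limma with Benjamini-Hochberg adjustment. An exact two-sided sign-flip permutation test over the 8 days gave p = 0.0703, where the smallest p it allows is 0.00781. The log2 ratio of miR-211 lay between −0.08 and 0.04, with a mean of −0.01 ± 0.01 (SE, n = 8), a 95% interval of −0.04 to 0.02 and an adjusted p of 0.673 by limma with Benjamini-Hochberg adjustment. The exact test gave p = 0.523 for miR-211. Thus 0 of 2 members passed, while 17.6% of all 569 miRs did, with 51 (8.96%) higher and 49 (8.61%) lower in IRI. miR-204 ranked 48 of 569 by its mean ratio, counted from the highest. Without day 14 the mean ratio of miR-204 was 0.19, and that of miR-211, which is close to 0, changed sign.

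The second comparison asked whether the difference grew with time. A constant dye bias cancels in this slope, which is also the difference between the slopes of IRI and sham. The slope of the log2 ratio per doubling of the day was 0.15 ± 0.07 (SE, n = 8) for miR-204, with a 95% interval of −0.02 to 0.32 and an adjusted p of 0.585 by limma with Benjamini-Hochberg adjustment. An exact permutation test of the days, two-sided, gave p = 0.113. For miR-211 the slope was −0.01 ± 0.01 (SE, n = 8), with an adjusted p of 0.798 by limma with Benjamini-Hochberg adjustment. Neither member passed, and 0 of 569 miRs did by limma, with 51 at an unadjusted p under 0.05. Without day 1 the slope of miR-204 was 0.26, the largest that leaving out a day gave, with an adjusted p of 0.367 by limma.

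Within the arms, the slope of the miR-204 log2 level in IRI was estimated at 0.18 ± 0.06 per doubling of the day (SE, n = 8) and did not pass the test, with an adjusted p of 0.316 by limma with Benjamini-Hochberg adjustment and an exact permutation p of 0.0508. In sham the estimate was 0.03 ± 0.02 (SE, n = 8), with an adjusted p of 0.839 by limma and an exact permutation p of 0.267. Without day 1 the miR-204 slope was 0.27 in IRI and 0.02 in sham, with adjusted p-values of 0.345 and 0.956 by limma. For miR-211 the slopes were 0.01 ± 0.01 in IRI and 0.02 ± 0.01 in sham (SE, n = 8 each), with adjusted p-values of 0.849 and 0.740 by limma with Benjamini-Hochberg adjustment. The exact permutation test of the sham slope of miR-211 alone gave p = 0.0291, not adjusted for the 8 member tests made. The members thus passed in neither arm, where 0.351% of all miRs passed in IRI and 0.176% in sham.

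Since the probes differ at a single position, the signals of the pair were set side by side on every array. The spots of miR-211 lie in the same columns as those of miR-204, 13 rows away, which gives 6 pairs of spots in each sample. miR-204 was brighter in 6 of 6 pairs in IRI on days 1, 7, 10, 14, 21 and 30, in 4 of 6 on day 3 and in 2 of 6 on day 5. In sham it was brighter in 6 of 6 pairs on days 1, 3 and 14, in 5 of 6 on days 7 and 21, in 4 of 6 on day 5, in 3 of 6 on day 10 and in 2 of 6 on day 30. Samples with 6 of 6 pairs were thus found in both arms. In IRI the mean difference in intensity with its SD over 6 pairs was 48.2 ± 14.0 (day 7), 237.7 ± 58.7 (day 14), 155.0 ± 9.86 (day 21) and 108.7 ± 18.5 (day 30), and the lowest was −10.8 ± 16.9 (day 5). In sham, on the Cy5 scale, it was between 0.115 (day 30) and 4.80 (day 3). In naïve miR-204 was brighter in 1 of 6 pairs, with a mean difference of −21.3 ± 27.4.

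The miR-211 signal over the empty spots was 9.56% of that of miR-204 on day 14 of IRI, 14.9% on day 21 and 16.7% on day 30. On days 7 and 1, with a weaker miR-204 signal, it was 42.0% and 55.0%. Over the 6 samples in which miR-204 was above background, sham day 14 included, the median was 29.4%. Of these 6 samples the miR-211 probe itself was above background only in IRI on day 7, so the other 5 percentages, and the median, set a probe at background against miR-204. After normalization, where a probe with no signal keeps a level, miR-211 stood at 48.9% to 113% of miR-204, with a median of 88.4% over 17 samples and of 68.9% over those 6. How much of the signal of each probe comes from the other miR was not tested.

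**Figure D4:**
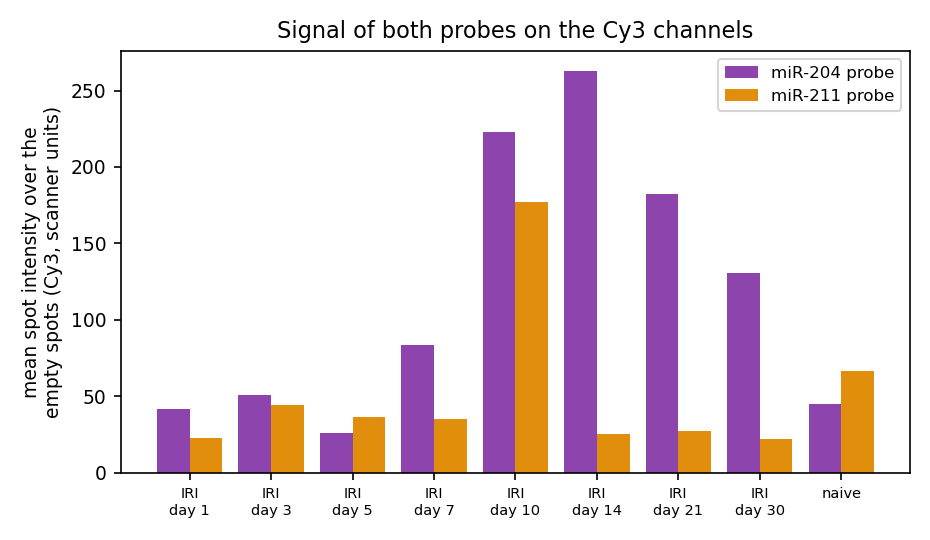
Mean spot intensity over the median of the empty spots in the Cy3 channels (y axis, scanner units, linear scale from 0) for the miR-204 probe (purple) and the miR-211 probe (orange) in the 8 IRI samples and the naïve sample (x axis). On days 14, 21 and 30 the miR-204 bars stood at 262.9, 182.2 and 130.5 and the miR-211 bars at 25.1, 27.1 and 21.8, and on day 10, where the empty spots varied most, both bars are high.

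Across the 16 IRI and sham samples, the log2 levels of miR-204 and miR-211 had a Pearson correlation of 0.15 and a Spearman correlation of 0.18. It was 0.27 within IRI and 0.29 within sham, over 8 samples each. These values describe samples that share arrays and dyes, and most of the miR-211 levels are at background.

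Above background in IRI on each of days 14, 21 and 30 but not in naïve were 8 of the 569 miRs, or 1.41%, which included miR-204. The others were miR-15a, miR-200b*, miR-340-5p, miR-374, miR-674*, miR-676 and miR-7a. These 7 miRs were above background in 5 to 8 of the 8 sham samples each, against 1 of 8 for miR-204. They were named after their values were seen, and the counts are a description.

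The miRs whose levels followed that of miR-204 most closely were sought among the 162 miRs that reached a normalized level of 200 in at least 1 sample, by Pearson correlation of the log2 level over the 16 IRI and sham samples. The median correlation was 0.04, with 27 miRs over 0.5 and 23 under −0.5. The 5 highest were miR-146b (0.87), miR-181b (0.87), miR-146a (0.84), miR-181d (0.84) and miR-199a-5p (0.81). miR-146a and miR-146b are induced by NF-kB and dampen Toll-like receptor signalling, miR-181b and miR-181d belong to a family known from lymphocyte development and endothelium, and miR-199a-5p is typical of fibroblasts and smooth muscle. Within IRI alone the correlations of these 5 were 0.79 to 0.87, and within sham −0.39 to 0.58.

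Since these 5 were chosen for following miR-204 in the same samples, their log2 IRI/sham ratios are given as a description. For miR-181d the ratio was 0.84, 0.80 and 0.88 on days 14, 21 and 30 and −0.01 on day 10. For miR-181b it was 1.16, 1.23 and 1.20 on those 3 days and 0.07 on day 10. miR-146b had larger ratios, 3.57, 3.02 and 3.23 on the 3 late days and 0.13 on day 10, and unlike miR-204 it was already at 0.61, 0.97 and 1.01 on days 3, 5 and 7. miR-146a was at 2.02, 2.37 and 3.30 on the late days and, unlike miR-204, also at 0.47, 1.07 and 0.79 on days 5, 7 and 10. For miR-199a-5p the ratio was 0.96, 0.76 and 0.93 on the late days and 0.03 on day 10. Of the 5, miR-146b, miR-146a and miR-199a-5p passed the test of the mean ratio by limma, as did 36.4% of the 162 miRs (18.5% higher in IRI), and miR-181b and miR-181d had adjusted p-values of 0.0505 and 0.0663. Apart from miR-146a, these miRs reached the level of 200 needed for testing only in IRI. In sham their highest levels were 133.1 (miR-146b), 146.3 (miR-181b), 110.0 (miR-181d) and 136.7 (miR-199a-5p).

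The lowest correlations with miR-204 were those of miR-805 (−0.76), an entry of the miR database that also matches mitochondrial sequence, and miR-429 (−0.74), an epithelial member of the miR-200 family. The ratio of miR-805 was −0.69 on day 1 and −3.75 on day 30. miR-429 had a mean log2 ratio of −0.51 ± 0.15 (SE, n = 8). Both were chosen for their correlation in the same samples, so these ratios are a description.

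**Figure D5:**
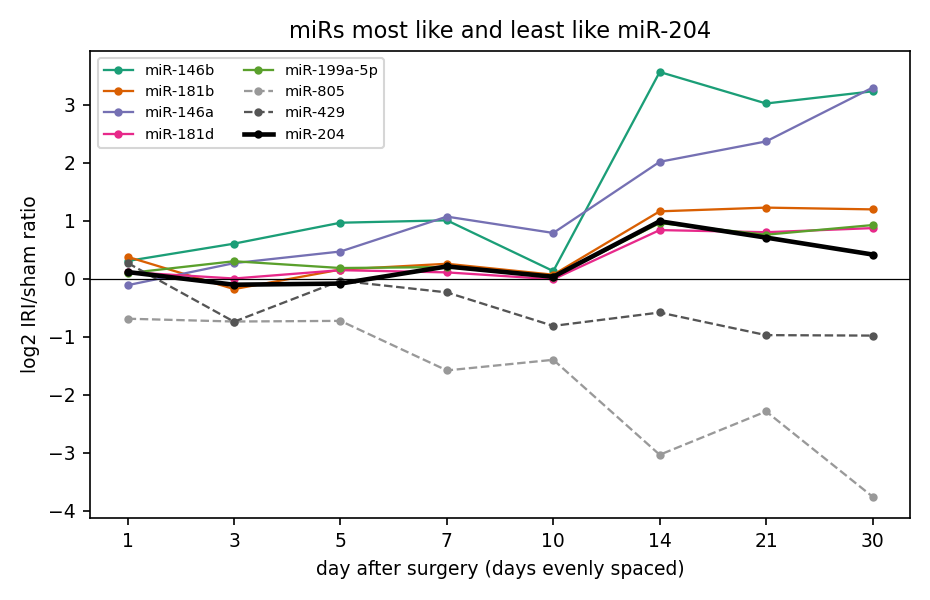
Log2 IRI/sham ratio (y axis) by day after surgery (x axis, days evenly spaced) of miR-204 (thick black line), the 5 miRs with the highest correlation to it (solid lines) and the 2 with the lowest (dashed lines). Each point is 1 array. miR-204 and miR-181d had ratios of 0.99 and 0.84 on day 14 and of 0.04 and −0.01 on day 10.

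miR-204 is known from kidney tubule and miR-211 mainly from melanocytes, and the kidney content of the samples was read from other miRs. Of 16 miRs known from kidney tubule and other epithelium, 14 were above background in all 17 samples, and their summed normalized level was 43664 to 58170 in IRI, 40037 to 59975 in sham and 34410 in naïve. The sum over all miRs was 392610 to 477707 in IRI, 451104 to 658802 in sham and 457955 in naïve, whose level comes from a single Cy3 channel. Of the 16, 15 were above background in naïve and 14 reached a level of 200, so the list also holds weak miRs. In naïve and sham kidney the members passed the background limit of 3 MADs only with miR-211 in naïve (3.80) and miR-204 in sham on day 14 (3.08). Of the 14 epithelial miRs that could be tested, 7 were lower in IRI and 1 was higher, with a median log2 ratio of −0.37 against −0.04 over all 162 detected miRs, of which 36.4% passed the test, 18.5% higher and 17.9% lower. The lower ones were miR-200a (−1.11 ± 0.30), miR-192 (−0.88 ± 0.19), miR-194 (−0.76 ± 0.15), miR-187 (−0.75 ± 0.22), miR-429, miR-200b and miR-30d (log2 ratio ± SE, n = 8). The higher one was miR-10a, a miR of the Hox clusters, at 0.60 ± 0.19. The list went both ways, since miR-10b (0.33), miR-30b (0.26) and miR-200c (0.16) had positive estimates that, like the 0.29 of miR-204, did not pass. Its correlation with these 14 miRs over 16 samples ran from −0.74 for miR-429 to 0.64 for miR-10a.

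Markers of other cell types were read in the same way, and 36.4% of the 162 miRs tested passed, 18.5% higher in IRI. Of 5 fibroblast and smooth muscle miRs, all tested, 3 were higher in IRI, miR-199a-3p (1.87 ± 0.22), miR-214 (1.16 ± 0.30) and miR-199a-5p (0.43 ± 0.13, log2 ratio ± SE, n = 8), and the lowest was miR-143 at −0.13. Only in IRI did miR-199a-5p reach the level of 200 needed for testing. Its level was 111.8 to 244.3 in IRI, 108.8 to 136.7 in sham and 99.2 in naïve. Its IRI level thus decided that it was tested, and its part in this count is a description. The ratio of miR-199a-3p also had a slope that passed, 0.39 per doubling of the day, where 2.47% of the 162 miRs passed. Their summed level was 5660 to 14674 in IRI, 4293 to 12912 in sham and 9354 in naïve.

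Of 5 leukocyte miRs, 3 reached the level for testing and all 3 were higher in IRI, against 18.5% of the 162 miRs, miR-155 (1.52 ± 0.20), miR-223 (0.98 ± 0.22) and miR-150 (0.92 ± 0.25, log2 ratio ± SE, n = 8). Their summed level over the 5 was 1447 to 3266 in IRI, 819.9 to 1177 in sham and 632.3 in naïve. miR-142-3p and miR-142-5p, typical of leukocytes, did not reach 200 in any sample. The correlation with miR-204 over 16 samples was 0.81 for miR-150, 0.75 for miR-223 and 0.19 for miR-155.

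Of 2 endothelial miRs the 1 tested, miR-126-3p, had a mean log2 ratio of −0.03 that did not pass, with a summed level of 5399 to 9107 in IRI, 4998 to 8830 in sham and 3103 in naïve. Of 3 erythroid miRs, 2 were tested, and the mean ratio of neither passed, with miR-451 at −0.68 and miR-486 at −0.78. Both had slopes of the ratio that fell with time, by 0.79 for miR-451 and 0.59 for miR-486 per doubling of the day. The summed erythroid level was 327.7 to 1209 in IRI, 395.0 to 1491 in sham and 285.6 in naïve. The part of leukocytes, fibroblasts and blood in the late miR-204 signal was not tested.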

How the data were processed

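For 9 arrays the authors deposited a mean intensity per spot, not corrected for background, and a table with 1 processed intensity per miR and sample. Before labelling, RNA under 300 nt was isolated from 4 to 8 µg of total RNA, per the labels. The day 5 array names its channels only Sample A and Sample B, and the first was taken as Cy3 as on the other arrays; the processed values correlated 0.998 and 0.999 with their own channels. Background was corrected per channel with normexp (offset 50), the 6 spots of a miR were averaged, and loess within arrays (control probes at weight 0) and quantile normalization between arrays, naïve included, followed.

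The log2 ratio within each array was tested with limma 3.58.1 in R 4.3.3, Benjamini-Hochberg adjusted, at a threshold of 0.05, over all 569 miRs. Taking the ratio within an array keeps the pairing of IRI and sham. The planned fit over the 162 miRs reaching 200 holds neither member and was used for the other miRs. Fits were tested on simulated data. For each list, its counts are given with the members that had the highest and lowest mean ratio or passed a test. Other miRs named were the 5 with the highest and the 2 with the lowest correlation to miR-204 and those sharing its seed. Members and lists were chosen with earlier results of these data known. Pools are single samples, so p-values measure the spread between days, and the number of arrays limits the precision. Alternatives covered background, scaling, source of values, spot summary, filter, floor, variance model, time scale, pairing and each day left out.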

Additional observations from a re-analysis of the deposited data

How the results depend on the processing

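The miR-204 estimates kept their sign and stayed short of the threshold in every alternative that gave them a value. The mean ratio ran from 0.19 (without day 14) to 0.56 (deposited values, log2(value + 10), an alternative added after the data were seen), with adjusted p-values of 0.104 to 0.336. Per doubling of the day, the slope of the ratio ran from 0.097 (median scaling) to 0.29 (log2(value + 10)), the slope in IRI from 0.15 (without day 14) to 0.38 (log2(value + 10)) and the slope in sham from 0.017 (without day 1) to 0.17 (median scaling). Per day, the slopes were 0.024, 0.028 and 0.0042. Without the replicate block, the mean ratio of miR-204 was 0.29 with an adjusted p of 0.336 and the slope 0.15 with an adjusted p of 0.714, by limma. The mean ratio of miR-211, −0.01, turned to 0.022 with the deposited values, 0.059 with these and log2(value + 10), 0.00049 with local background (also added after the data were seen) and 0.00025 without day 14, and leaving out a day gave −0.016 to 0.00025. Its IRI slope was −0.0011 without day 1, and at most 0.013 without any other day. The cause was not tested, and each of these turned values was smaller than its SE. Median scaling moved the median mean ratio of all 569 miRs from 0.00081 to −0.26. There the mean ratio of miR-211 was −0.27 ± 0.20 (SE), or −0.0095 relative to that median, and that of miR-204 was 0.26, or 0.53 relative to it. The same scaling gave miR-211 a ratio slope of −0.17 and a sham slope of 0.17, where the medians of all miRs were −0.16 and 0.16. Under the floor of 200 and both filters at 200 the members have no value.

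The count of all miRs past the threshold moved more. For the mean ratio it was 100, and 56 with median scaling, 58 without day 10, 30 with the floor of 200, 64 with trend and robust variance, 30 with no replicate block, 29 with local background, 59 with a signal of 200 in at least 1 sample, 40 with a mean signal of 200, and 31 (without day 14) to 79 when a day was left out. For the slope of the ratio it was 0, and 14, 4, 3, 5, 1 and 3 with median scaling, deposited values, no day 10, floor, trend and day in place of log2(day), 5 with log2(value + 10), 4 and 6 with the filters, and 0 to 3 when a day was left out. For the slope in IRI it was 2, and 6, 6, 8, 12 and 21 with median scaling, deposited values, no day 10, trend and log2(value + 10), 14 and 18 with the filters, and 1 to 8 when a day was left out. For the slope in sham it was 1, and 2, 2, 4 and 0 with median scaling, deposited values, no day 10 and local background, 2 with each filter, and 0 to 4 when a day was left out. The filters test fewer miRs.

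The miR-211 level as a percentage of the miR-204 level had a median of 88.4% after normalization over 17 samples. For the scanner signal over the empty spots it was 29.4% over the 6 samples with miR-204 above background, in which the normalized median was 68.9%, so the choice of samples and the scale both differ. Signal over background limits all member values: neither reached 200, and 1 pool per arm and day leaves no error between mice on a single day.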
